A study of Mus musculus with 6 samples.

Results

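The levels of 56 genes of DNA replication and S phase were compared between lung endothelial cells (ECs) of mice 7 days after unilateral pneumonectomy (PNX, surgical removal of 1 lung) and of sham-operated mice. The genes were taken as a named list covering origin licensing, the replication fork, nucleotide supply and replication-linked repair. All 56 were found among the 24063 gene symbols of the files, and all 56 passed the filter on low counts that left 16598 genes for testing. In dividing cells, origins of replication are first bound by the origin recognition complex, on which Cdc6 and Cdt1 load the MCM helicase. The kinases Cdk2 with cyclin E and Cdc7 with Dbf4 then switch the helicase on together with Cdc45 and the GINS complex, and DNA polymerases copy the strands on the PCNA clamp. Many of these genes are transcribed mainly in cells that leave quiescence, and most ECs of an adult lung are quiescent.

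ECs came from 8-week-old male C57BL6 mice according to the labels, while the study's methods give an older age range for mice that underwent PNX. Both groups carried the same wild-type genotype, and the labels name no other allele or treatment. Each group held 3 libraries, and the RNA of each library was pooled from 2 mice. Cells carrying CD31, a surface protein that platelets and some leukocytes share with ECs, were captured with magnetic beads and passed over another column. The methods report that most isolated cells were positive for this same marker by FACS, and give no sort by further markers. Replicates 1 and 2 of both groups were re-used from an earlier deposit and replicate 3 of both groups is from a later one.

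The libraries held 29526989 to 81282871 counts, with the lowest totals in replicate 3 of each group. Replicates 1 and 2 of a group differed by little more than counting error, so their sum was treated as 1 sample, and each group then had 2 samples. Levels are given in CPM, the count of a gene scaled to a common library total. The 8 endothelial markers, among them Pecam1 and Cdh5, were abundant in all 6 libraries, with summed levels of 7410 to 8727 CPM in sham and 7050 to 7604 CPM in PNX, and none was called. Markers of other cells were also present and no listed marker was at 0. The summed level of 8 fibroblast markers was 1467 to 1800 CPM in sham and 5022 to 7105 CPM in PNX, and that of 4 mesothelial markers 118 to 428 and 351 to 1099 CPM. With the replicate block described below, 5 of the 8 and all 4 were called higher. The 5 fibroblast markers were Col1a1, Col1a2, Col3a1, Dcn and Lum. Pdgfra, Tcf21 and Pdgfrb were not called, with log2 fold changes of PNX over sham of -0.45, -0.23 and -0.12 without the block. The fibroblast markers thus did not move together. The sums of 7 macrophage and monocyte markers overlapped (3595 to 6570 and 4759 to 6295 CPM), with 3 called higher. Those of 5 alveolar type 2 markers were 6417 to 6988 and 2350 to 4143 CPM and those of 4 club cell markers 3762 to 6836 and 1751 to 1822 CPM, with 3 and 4 called lower. Of the T cell, B cell, neutrophil and erythroid markers none was called, and 1 of 5 platelet markers was called higher. The summed levels of 16 mitotic genes, which any dividing cell expresses, were 106 to 177 CPM in sham and 848 to 1207 CPM in PNX, and all 16 were called higher. The part of these other cells in the levels of the replication genes was not tested. In these bulk samples more cells in S phase and more RNA of these genes per cell cannot be told apart.

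Nearly all replication genes were higher after PNX. In 53 of the 56 genes every PNX library was above every sham library, against 18.6% of all genes tested, and in none was every PNX library below. The exceptions were Orc2, Gins4 and Rpa3, whose libraries overlapped. The summed level of the 56 genes was 993, 996 and 1130 CPM in sham replicates 1, 2 and 3 and 1914, 1908 and 2440 CPM in PNX replicates 1, 2 and 3. The log2 fold change of PNX over sham was above 0 for 55 of the 56 genes, against 48% of all genes tested, with a median of 1.19 against -0.01 for all genes, of which 5.84% were above 1. The largest log2 fold changes were those of Exo1 (2.55), Cdc6 (2.51), Uhrf1 (2.49), Ccne1 (2.40) and Rrm2 (2.37).

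**Figure D1:**
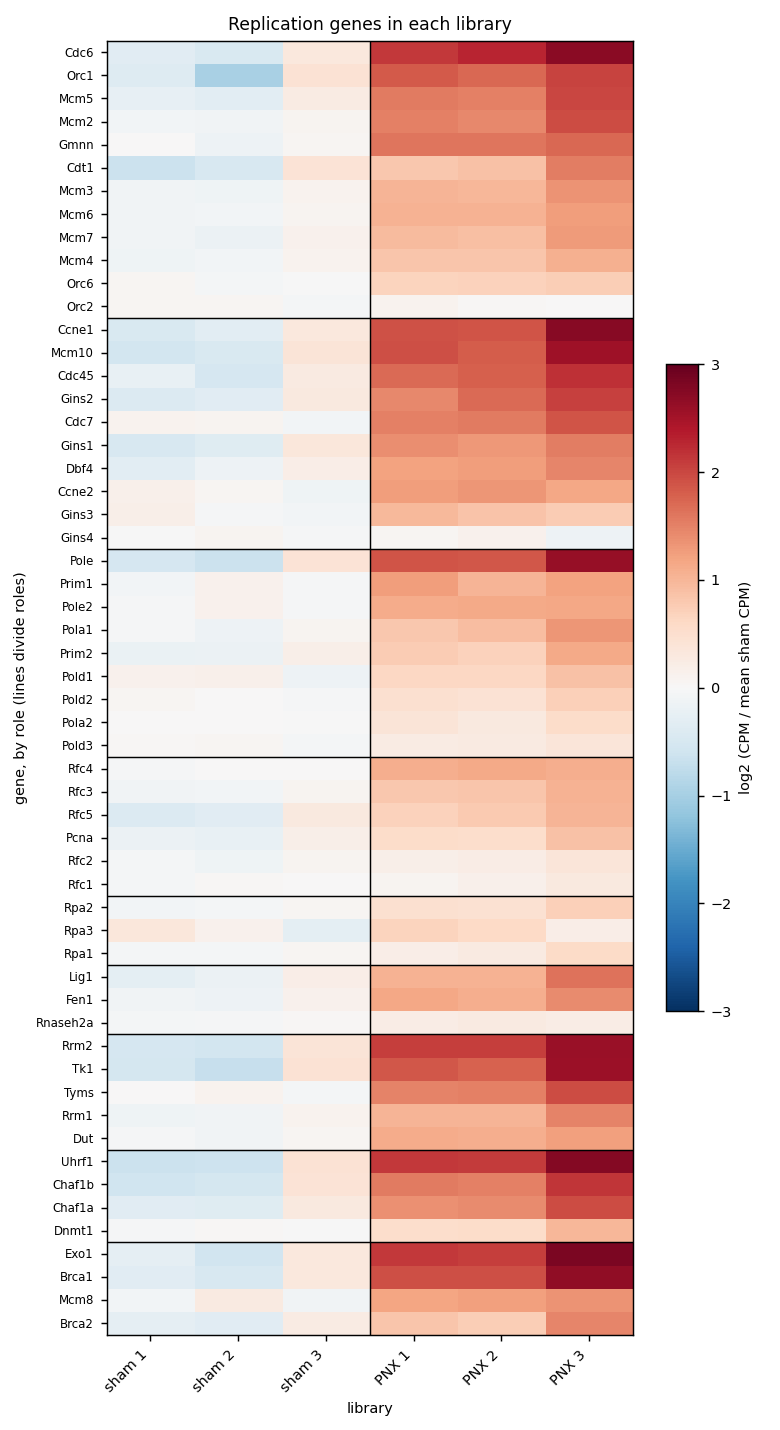
Level of each of the 56 replication genes in each of the 6 libraries, as the log2 ratio of its CPM to its mean CPM in sham, with genes on the vertical axis grouped by role and libraries on the horizontal axis. The PNX libraries are above the sham libraries for 53 genes, while Orc2, Gins4 and Rpa3 overlap, and replicate 3 of PNX is the most deeply coloured column.

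Whether these differences passed the test depended on how the deposits were treated, on the tool and on whether replicates 1 and 2 were summed. A gene was called when its adjusted p in edgeR's quasi-likelihood test was under 0.01 and its fold change above 2. Without a block, no replication gene and no gene at all was called (0% of 16598, lowest adjusted p 0.072), and limma-voom also called 0. At an unadjusted p under 0.05 in the same edgeR fit, 48 of the 56 genes were higher after PNX, against 7.54% of all genes, and 2076 genes (12.5%) differed in either direction. With the deposit as a replicate block, 36 of the 56 were called, all higher after PNX, against 3.89% of all genes called higher and 1.23% called lower. Another 7 genes (Orc6, Mcm4, Prim2, Pcna, Rfc3, Rfc5 and Dnmt1) passed the adjusted p with the block at a fold change under 2, where 6.22% of all genes passed at any fold in that direction. The other 13 did not pass with the block either. With the 6 libraries taken as separate replicates 25 genes were called, against 2.28% of all genes called higher, and all 25 were among the 36. DESeq2 called 34 with the 4 samples, against 2.91% of all genes called higher and 0.52% lower, and 36 with the 6 libraries, against 4.01% and 1.40%. The fold changes moved little between these fits, whereas their spread did, since the biological coefficient of variation was 0.236 without the block and 0.0973 with it.

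**Figure D2:**
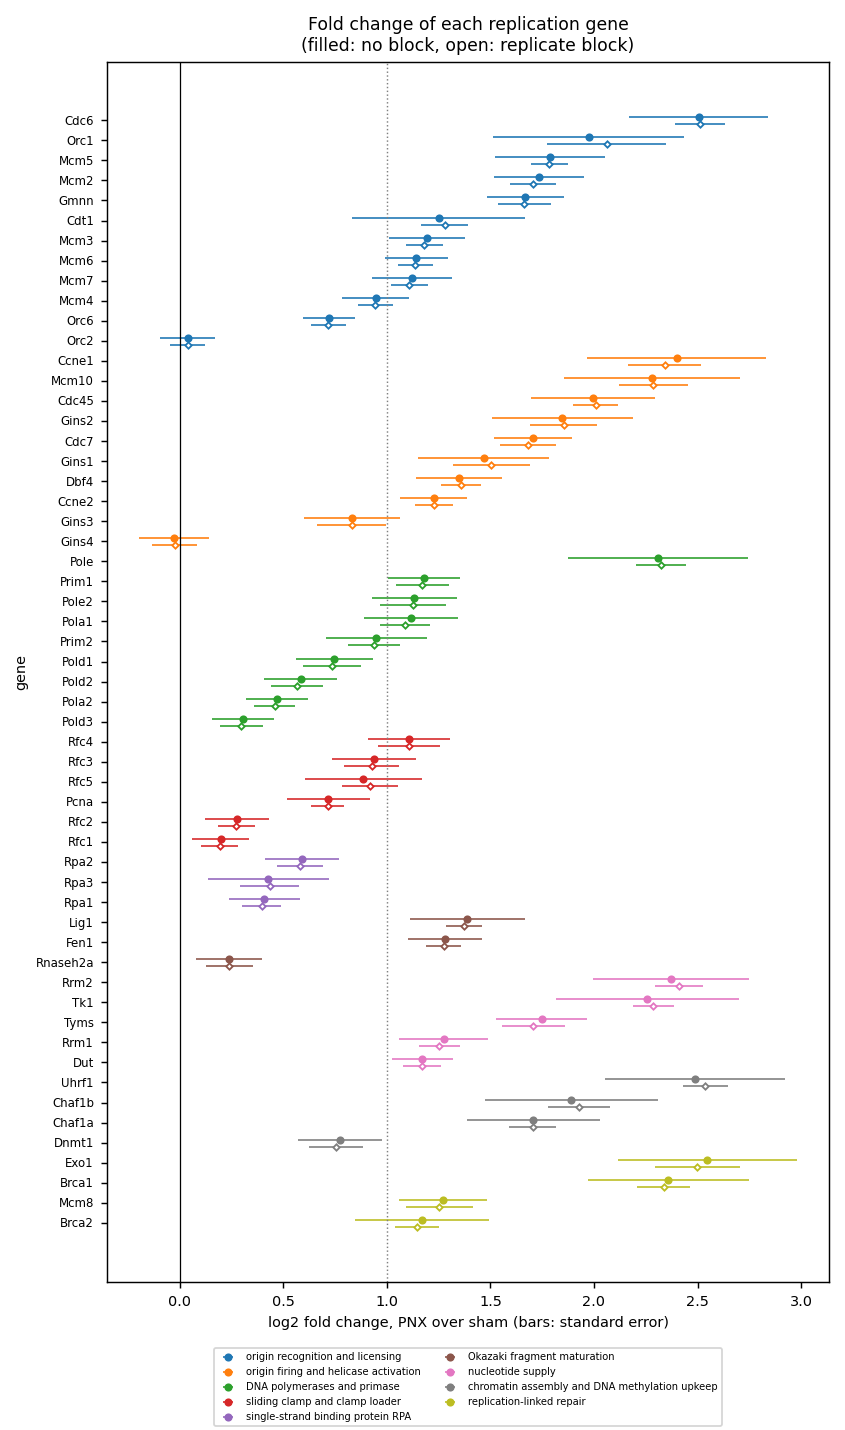
Log2 fold change of PNX over sham on the horizontal axis for each of the 56 genes, grouped and coloured by role, with the standard error as a bar, from edgeR without a block (filled circles) and with the replicate block (open diamonds). The dotted line marks a fold change of 2, and the bars of the blocked fit are shorter while the points lie close together.

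The 12 genes of origin recognition and licensing had a median log2 fold change of 1.22, and 9 of them were called with the replicate block. Cdc6 (chr11:98907801-98923940, plus strand, GRCm38), the ATPase that loads the MCM helicase, was highest in this role. Its level was 2.21, 2.02 and 3.44 CPM in the sham libraries against 12.0, 13.6 and 18.3 CPM in the PNX libraries, with no overlap. Its mean was 2.78 ± 0.933 CPM in sham and 15.5 ± 3.89 CPM in PNX (SD, n = 2 samples each), which gave a log2 fold change of 2.51 ± 0.34 (± its standard error here and below, edgeR adjusted p = 0.0873 without and 2.4e-05 with the replicate block). Orc2 (chr1:58462771-58505109, minus strand), a subunit of the origin recognition complex, was lowest in this role. It was at 28.2, 28.1 and 25.9 CPM in the sham libraries against 29.2, 27.5 and 27.3 CPM in the PNX libraries, so the groups overlapped and the log2 fold change was 0.04 ± 0.13 (edgeR adjusted p = 0.953 without and 0.79 with the block). Orc1, another subunit of the complex, was at 0.77, 0.511 and 1.37 CPM in the sham libraries against 3.60, 3.30 and 4.12 CPM in the PNX libraries, a log2 fold change of 1.97 ± 0.46 with no overlap. The level of Orc1 in sham rested on only 39, 23 and 29 counts. Orc6 was between them at a log2 fold change of 0.72 ± 0.13. Values with ± and no unit are likewise log2 fold changes of PNX over sham from here on. The genes of the MCM helicase were all higher, from Mcm5 at 1.79 ± 0.27 and Mcm2 at 1.73 ± 0.22 through Mcm3 (1.19 ± 0.18), Mcm6 (1.14 ± 0.15) and Mcm7 (1.12 ± 0.19) to Mcm4 (0.95 ± 0.16), and Mcm4 was the only one of the 6 not called with the block. Cdt1 (1.25 ± 0.42), the other loading factor, and Gmnn (1.67 ± 0.18), which encodes geminin, the inhibitor of Cdt1, were both called with the block.

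The RefSeq start of Cdc6 lies within the gene model above, and the 200 bases before it, chr11:98907951-98908150 on the plus strand of GRCm38.p6, are shown because they hold an E2F word, in capitals, whose first base is at -138 from the start. E2F factors are known to control many replication genes through such words. Here and for the genes that follow only the exact words listed below were searched, so near matches were not counted.
Cdc6: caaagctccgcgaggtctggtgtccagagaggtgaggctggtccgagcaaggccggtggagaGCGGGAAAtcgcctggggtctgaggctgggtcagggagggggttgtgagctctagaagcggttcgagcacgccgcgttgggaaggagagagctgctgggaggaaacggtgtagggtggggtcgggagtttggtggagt

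The 10 genes of origin firing and helicase activation had a median log2 fold change of 1.59, and 8 were called with the replicate block. Ccne1 (chr7:38097984-38107534, minus strand), which encodes cyclin E1, the partner of Cdk2 at the start of S phase, was highest. Ccne1 was at 1.58, 1.73 and 2.69 CPM in the sham libraries against 8.18, 7.96 and 14.4 CPM in the PNX libraries, with no overlap and a log2 fold change of 2.40 ± 0.43 (edgeR adjusted p = 0.133 without and 0.00017 with the replicate block). Its paralog Ccne2 was called as well, at a log2 fold change of 1.23 ± 0.16. Gins4 (chr8:23226616-23237659, minus strand), a subunit of the GINS complex that joins the MCM helicase to Cdc45, was lowest and the only one of the 56 below 0, although with the 6 libraries taken as separate replicates it was at 0.0032 on the log2 scale. It was at 21.0, 22.2 and 20.6 CPM in the sham libraries against 21.9, 23.0 and 19.0 CPM in the PNX libraries, a log2 fold change of -0.03 ± 0.17 (edgeR adjusted p = 0.98 without and 0.89 with the block). The PNX libraries of Gins4 were thus within or next to the range of sham. The other GINS subunits were higher, with log2 fold changes of 1.85 ± 0.34 for Gins2, 1.47 ± 0.31 for Gins1 and 0.83 ± 0.23 for Gins3, of which Gins3 was not called. Mcm10 (2.28 ± 0.43) and Cdc45 (2.00 ± 0.30), which complete the active helicase, and Cdc7 (1.70 ± 0.19) with its activator Dbf4 (1.35 ± 0.21), the kinase that phosphorylates MCM, were all called with the block.

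Among the 9 genes of the DNA polymerases and primase the median log2 fold change was 0.95, and 4 were called with the replicate block. Pole (chr5:110286306-110337474, plus strand), the catalytic subunit of the leading strand polymerase epsilon, stood highest. Its level was 4.64, 4.18 and 8.62 CPM in the sham libraries against 24.1, 23.8 and 39.6 CPM in the PNX libraries, a log2 fold change of 2.31 ± 0.43 (edgeR adjusted p = 0.14 without and 3.1e-05 with the block). Replicate 3 was the highest library of each group. Its partner Pole2 had a log2 fold change of 1.13 ± 0.21. The lowest was Pold3 (chr7:100082111-100121565, minus strand), an accessory subunit of the lagging strand polymerase delta. It was at 31.9, 32.3 and 30.0 CPM in the sham libraries against 36.6, 37.1 and 40.1 CPM in the PNX libraries, which did not overlap but differed by a log2 fold change of only 0.31 ± 0.15 (edgeR adjusted p = 0.507 without and 0.083 with the block). No polymerase delta gene was called, with Pold1, its catalytic subunit, at 0.74 ± 0.19 and Pold2 at 0.58 ± 0.18. In polymerase alpha and primase, which lay the first stretch of each strand, Prim1 (1.18 ± 0.17) and Pola1 (1.12 ± 0.23) were called with the block, while Prim2 (0.95 ± 0.25) and Pola2 (0.47 ± 0.15) were not.

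The 6 genes of the clamp and its loader had a median log2 fold change of 0.80, and 1 was called with the replicate block. That gene was Rfc4 (chr16:23113943-23127737, minus strand), a small subunit of the clamp loader, at 5.05, 5.22 and 5.28 CPM in the sham libraries against 11.1, 11.5 and 11.1 CPM in the PNX libraries. The log2 fold change of Rfc4 was 1.11 ± 0.20 (edgeR adjusted p = 0.13 without and 0.0027 with the block). Rfc1 (chr5:65261850-65335670, minus strand), the large subunit of the loader, was lowest at 64.4, 68.9 and 68.2 CPM in the sham libraries against 70.9, 74.8 and 82.1 CPM in the PNX libraries. The groups did not overlap, but the log2 fold change of 0.20 ± 0.14 did not pass the test (edgeR adjusted p = 0.661 without and 0.17 with the block). Pcna (chr2:132249162-132253314, minus strand), the clamp itself and a common marker of proliferating cells, was at 77.1, 74.5 and 97.6 CPM in the sham libraries against 128, 124 and 159 CPM in the PNX libraries. Its log2 fold change of 0.72 ± 0.20 passed the adjusted p with the block (edgeR, 0.0012) and not the fold threshold.

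None of the 3 genes of RPA, the protein that coats single-stranded DNA, was called, and their median log2 fold change was 0.43. Rpa2 (chr4:132768332-132778752, plus strand) was highest at 15.2, 15.4 and 16.6 CPM in the sham libraries against 22.2, 21.9 and 26.1 CPM in the PNX libraries, a log2 fold change of 0.59 ± 0.18 (edgeR adjusted p = 0.29 without and 0.011 with the block). Rpa1 (chr11:75298166-75348324, minus strand) was lowest at 65.4, 65.4 and 70.6 CPM in the sham libraries against 77.9, 81.4 and 101 CPM in the PNX libraries (0.41 ± 0.17, edgeR adjusted p = 0.443 without and 0.025 with the block). The libraries of both genes did not overlap. Those of Rpa3 did, at 10.8, 9.40 and 6.93 CPM in the sham libraries against 13.6, 12.9 and 9.84 CPM in the PNX libraries. The 100 bases before the RefSeq start of Rpa2, chr4:132768260-132768359 on the plus strand of GRCm38.p6, are shown for their 2 CCAAT boxes, in capitals, read on the other strand with their first bases at -84 and -52. No exact E2F word was found in these bases or in the rest of its promoter window.
Rpa2: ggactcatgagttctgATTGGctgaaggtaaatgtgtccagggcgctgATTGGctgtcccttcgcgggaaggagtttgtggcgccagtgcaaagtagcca

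Of the 3 genes that finish the lagging strand, Lig1 and Fen1 were called with the replicate block and Rnaseh2a was not. Lig1 (chr7:13277283-13311433, plus strand), the ligase that seals the fragments, was at 17.3, 18.5 and 24.3 CPM in the sham libraries against 43.6, 43.6 and 65.5 CPM in the PNX libraries, a log2 fold change of 1.39 ± 0.28 (edgeR adjusted p = 0.157 without and 7.9e-05 with the block). Fen1, the nuclease that trims their flaps, was at 1.28 ± 0.18 on the log2 scale. Rnaseh2a (chr8:84956610-84969767, minus strand), the catalytic subunit of RNase H2, was at 15.1, 15.3 and 16.3 CPM in the sham libraries against 18.4, 18.9 and 18.5 CPM in the PNX libraries. Its groups did not overlap, with a log2 fold change of 0.24 ± 0.16 (edgeR adjusted p = 0.647 without and 0.17 with the block).

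All 5 genes of nucleotide supply were called with the replicate block, and their median log2 fold change was 1.75. Rrm2 (chr12:24708241-24714146, plus strand), the small subunit of the ribonucleotide reductase that makes deoxynucleotides in S phase, was at 9.45, 9.22 and 17.6 CPM in the sham libraries against 56.4, 56.7 and 81.3 CPM in the PNX libraries. The log2 fold change of Rrm2 was 2.37 ± 0.38 (edgeR adjusted p = 0.111 without and 2.4e-05 with the block). Dut (chr2:125247190-125258608, plus strand), which removes dUTP, was lowest at 9.93, 9.44 and 10.6 CPM in the sham libraries against 22, 21.6 and 23.6 CPM in the PNX libraries (1.17 ± 0.15, edgeR adjusted p = 0.0815 without and 0.00023 with the block). Between them stood thymidine kinase Tk1 (2.26 ± 0.44), thymidylate synthase Tyms (1.75 ± 0.22) and Rrm1 (1.27 ± 0.21), the large subunit of the reductase. The 100 bases before the RefSeq start of Rrm2, chr12:24708154-24708253 on the plus strand of GRCm38.p6, hold 1 CCAAT box, again in capitals, with its first base at -50 and no E2F word.
Rrm2: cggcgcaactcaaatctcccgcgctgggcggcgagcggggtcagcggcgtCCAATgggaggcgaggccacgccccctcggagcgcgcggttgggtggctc

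Of the 4 genes that rebuild chromatin and its methylation behind the fork, 3 were called with the replicate block, with a median log2 fold change of 1.80 for the 4. Uhrf1 (chr17:56303321-56323486, plus strand), which brings the methyltransferase Dnmt1 to newly copied DNA, was highest at 6.91, 7.04 and 14.6 CPM in the sham libraries against 47.2, 46.2 and 73.2 CPM in the PNX libraries. The log2 fold change of Uhrf1 was 2.49 ± 0.44 (edgeR adjusted p = 0.126 without and 1.8e-05 with the block). Dnmt1 itself (chr9:20907209-20959888, minus strand) was lowest at 82.6, 85.7 and 83.9 CPM in the sham libraries against 121, 122 and 166 CPM in the PNX libraries (0.78 ± 0.20, edgeR adjusted p = 0.236 without and 0.0074 with the block), which did not reach a fold change of 2. Chaf1b (1.89 ± 0.42) and Chaf1a (1.71 ± 0.32), subunits of the histone chaperone CAF-1, were both called. RefSeq gives Uhrf1 more than 1 start, and the 200 bases before the downstream one, chr17:56304113-56304312 on the plus strand of GRCm38.p6, hold an E2F word at -185 and CCAAT boxes at -150 and -107, all in capitals. The window of the upstream start holds CCAAT boxes and no E2F word.
Uhrf1: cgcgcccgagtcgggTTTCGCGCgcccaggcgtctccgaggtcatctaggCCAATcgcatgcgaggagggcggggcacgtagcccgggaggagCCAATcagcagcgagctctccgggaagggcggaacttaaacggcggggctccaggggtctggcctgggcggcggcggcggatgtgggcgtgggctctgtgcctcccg

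All 4 repair genes were called with the replicate block, with a median log2 fold change of 1.81. Exo1 (chr1:175880581-175913489, plus strand), a nuclease of mismatch repair and end resection, had the largest log2 fold change of the 56 genes, 2.55 ± 0.43 (edgeR adjusted p = 0.12 without and 0.00025 with the block). It was at 1.10, 0.889 and 1.65 CPM in the sham libraries against 5.74, 5.60 and 9.46 CPM in the PNX libraries. Brca2 (chr5:150522630-150570329, plus strand), a gene of double-strand break repair, was lowest in this role at 6.16, 5.91 and 8.86 CPM in the sham libraries against 13.3, 12.4 and 20.6 CPM in the PNX libraries (1.17 ± 0.32, edgeR adjusted p = 0.255 without and 0.00049 with the block). No library of PNX overlapped with sham for either gene. Brca1, which acts with Brca2 in the repair of broken forks, had a log2 fold change of 2.36 ± 0.39 and the helicase Mcm8 1.27 ± 0.21.

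The fold changes were much alike within each deposit. Of the 56 genes, 55 were higher after PNX within both deposits and 35 were above a log2 fold change of 1 in both. The median was 1.13 within the earlier deposit and 1.23 within the later one. Gins4 was the gene whose direction differed, at 0.06 and -0.11 on the log2 scale. The 7 largest gaps between deposits went in both directions. Orc1 (2.42 and 1.59 for the earlier and later libraries), Gins1 (1.77 and 1.20) and Uhrf1 (2.74 and 2.33) had the larger log2 ratio in the earlier libraries. Tyms (1.44 and 2.03), Pold1 (0.49 and 1.02), Cdc7 (1.45 and 1.98) and Dnmt1 (0.53 and 0.99) had it in the later libraries. Levels themselves tended to be higher in the later deposit, in 40 of the 56 genes in sham and 49 in PNX. The median log2 ratio of later over earlier level was 0.20 in sham and 0.31 in PNX, against -0.03 and 0.00 over all genes tested.

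**Figure D3:**
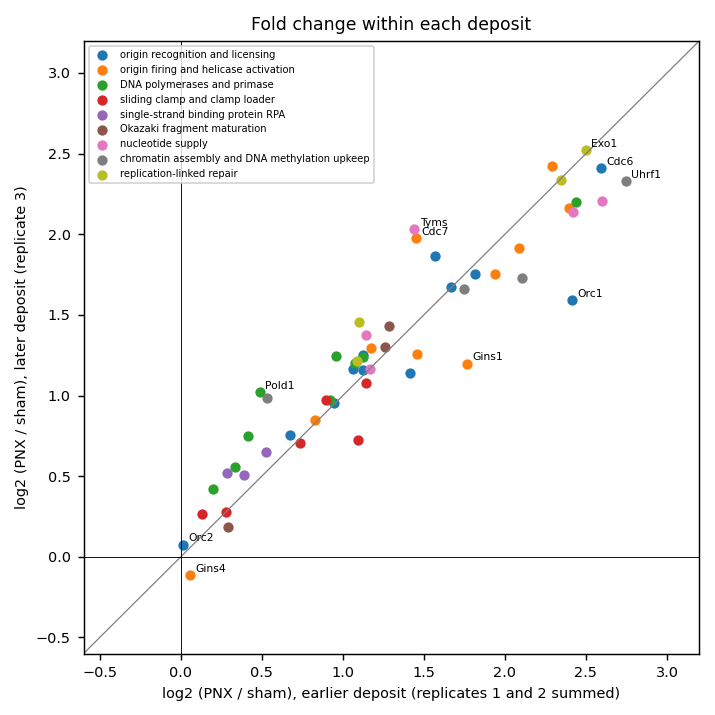
Log2 ratio of PNX over sham for each of the 56 genes within the earlier deposit (horizontal axis, replicates 1 and 2 summed) and within the later deposit (vertical axis, replicate 3), coloured by role, with the diagonal marking equal values. Gins4 lies on opposite sides of 0, Orc1 lies farthest below the diagonal, and 35 genes lie above 1 on both axes.

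Levels were compared between genes by the authors' TPM of the most counted transcript of each gene, which corrects for length. Pcna was the most abundant of the 56 in sham at 97.5, 94.1 and 122 TPM, and was at 158, 153 and 200 TPM after PNX. Rpa1 followed at 33.5, 33.5 and 35.7 TPM in sham and 39.0, 40.8 and 51.7 TPM after PNX, then Rfc2 at 32.5, 30.9 and 35.3 TPM and 37.2, 38.2 and 43.2 TPM. The sham levels of Rpa1 and Rfc2 overlapped, so their order was not resolved. Mcm6 (chr1:128331590-128359664, minus strand) was at 26.7, 27.4 and 30.1 TPM in sham and 57.6, 57.5 and 68.2 TPM after PNX. Dnmt1 was the fifth at 24.5, 25.4 and 24.6 TPM in sham and 35.0, 35.4 and 49.3 TPM after PNX. Its sham levels overlapped with those of Gins4 (24.5, 25.9 and 23.7 TPM) and Mcm7 (21.2, 20.3 and 24.6 TPM). Those of Rpa3 (26.9, 23.4 and 17.1 TPM) overlapped with both Mcm6 and Dnmt1, so these ranks were not resolved either. Of the 5 genes Pcna, Rpa1, Rfc2, Mcm6 and Dnmt1, Mcm6 was the only one called with the replicate block. At the other end stood Exo1 at 0.32, 0.257 and 0.471 TPM and Orc1 at 0.407, 0.27 and 0.713 TPM in sham. Across the 56 genes the log2 fold change was lower where the sham TPM was higher. Its Pearson's r with the log2 of the mean sham TPM was -0.704 and its Spearman's rho -0.721. These are given as a description, since the sham level enters both values and genes are not independent replicates.

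Partner subunits, which act in equal copies, were closer in level after PNX than in sham in the MCM helicase, GINS, the clamp loader and RPA. The ratio of the highest to the lowest TPM among MCM2 to MCM7 was 3.32, 3.57 and 2.70 in the sham libraries and 2.10, 2.15 and 1.79 in the PNX libraries. Among the 4 GINS genes it was 11.9, 11.7 and 9.09 in sham and 4.63, 5.30 and 4.66 in PNX, with Gins4 the most abundant in each library. Among the 5 genes of the clamp loader it was 4.91, 4.53 and 5.17 in sham and 2.61, 2.59 and 2.97 in PNX. Among the 3 RPA genes it was 2.47, 2.44 and 2.43 in sham and 2.02, 2.14 and 2.22 in PNX. Polymerase alpha with primase likewise narrowed, from 4.08, 4.34 and 3.64 in sham to 2.90, 2.54 and 2.26 in PNX. So did polymerase epsilon, from 4.15, 5.12 and 2.21 in sham to 1.76, 1.81 and 1.11 in PNX. For Orc1, Orc2 and Orc6 the ratio was 48.0, 67.0 and 25.9 in sham and 15.7, 17.5 and 14.5 in PNX. The groups did not overlap in any of these complexes. Polymerase delta went the other way by little, with ratios of 1.12, 1.05 and 1.26 for the sham libraries against 1.27, 1.22 and 1.37 for the PNX libraries, which overlapped. These ratios were not tested.

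The ratios of some paired enzymes and cyclins, also not tested, did not overlap between the groups. The ratio of Rrm2 to Rrm1, the small and large subunits of the reductase, was 0.395, 0.382 and 0.621 in sham TPM and 1.06, 1.07 and 1.11 in PNX TPM. That of Rrm2b, the alternative small subunit used outside S phase, to Rrm1 was 1.14, 1.05 and 0.631 in sham and 0.337, 0.325 and 0.179 in PNX. The ratio of Tk1 to Tk2, the cytosolic and mitochondrial thymidine kinases, was 0.332, 0.304 and 0.487 in sham and 2.04, 2.01 and 3.11 in PNX. That of Ccne1 to Ccne2 was 0.237, 0.277 and 0.490 in sham and 0.575, 0.532 and 1.07 in PNX, and replicate 3 was highest in each group. Cdt1 and its inhibitor Gmnn overlapped, with a ratio of 0.585, 0.734 and 1.18 in sham against 0.535, 0.556 and 0.816 after PNX.

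**Figure D4:**
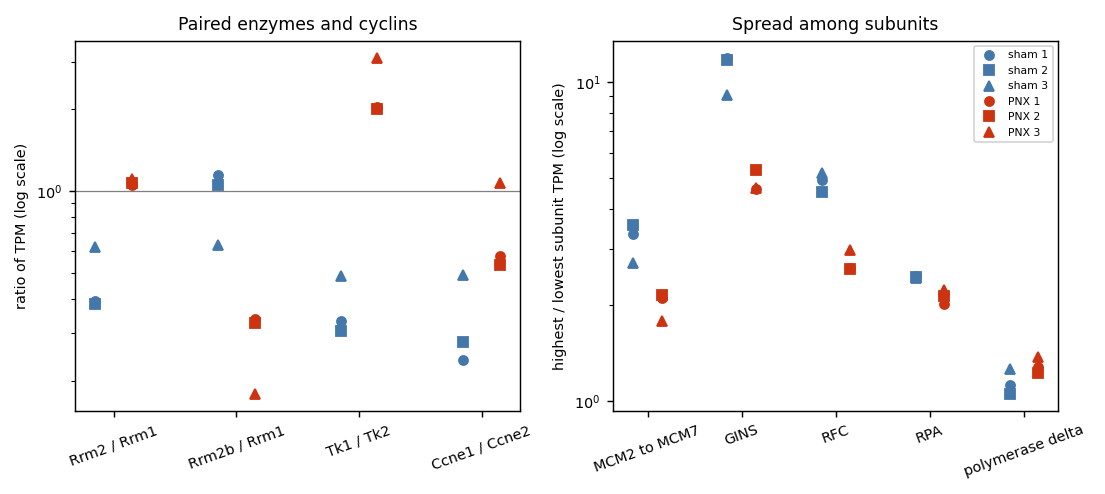
Ratios of TPM in each library on log axes, between paired enzymes and cyclins (left panel) and between the highest and lowest subunit of a complex (right panel), with sham in blue, PNX in red and a marker shape for each replicate. Rrm2 over Rrm1 lies at 0.382 to 0.621 in sham and 1.06 to 1.11 in PNX, and the spread among GINS subunits at 9.09 to 11.9 and 4.63 to 5.30.

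The other genes of the pathway, a list of 68 that were not among the 56, had a lower median. With the replicate block 21 of the 68 were called, all higher after PNX, against 3.89% of all genes called higher and 1.23% called lower. Another 13 passed the adjusted p at a fold change under 2, of which 12 were higher. Of all genes, 6.22% passed at any fold as higher and 3.32% as lower. The median log2 fold change of the 68 was 0.61. The highest were the helicase Pif1 (3.81 ± 0.45), topoisomerase Top2a (2.90 ± 0.40), Dtl (2.72 ± 0.27), which targets Cdt1 for destruction in S phase, the checkpoint adaptor Clspn (2.68 ± 0.56) and Dscc1 (2.59 ± 0.34), part of an alternative clamp loader. Pif1 was at 0.454, 0.60 and 1.13 CPM in the sham libraries against 9.74, 9.70 and 11.8 CPM in the PNX libraries. Top2a was at 21.5, 21.5 and 40.0 CPM in the sham libraries against 180, 177 and 277 CPM in the PNX libraries. All 5 were called with the block. The lowest were Gmnc (-0.78 ± 0.39), a relative of geminin, Rrm2b (-0.53 ± 0.27), the mitochondrial kinases Tk2 (-0.41 ± 0.18) and Dguok (-0.35 ± 0.17), and Samhd1 (-0.30 ± 0.25), which degrades deoxynucleotides. Of these, Rrm2b passed the adjusted p with the block (edgeR, 0.0096) and not the fold threshold, and its libraries overlapped at 56.7, 52.5 and 36.9 CPM in the sham libraries against 37.3, 35.6 and 27.2 CPM in the PNX libraries. The origin recognition subunits Orc3 (-0.12 ± 0.13), Orc4 (-0.17 ± 0.34) and Orc5 (-0.12 ± 0.20), named here after their values were seen, were near 0 like Orc2, and none of the 7 other genes of origin and licensing was called.

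Genes that start beside a replication gene were compared with it. In the GENCODE annotation of GRCm38, 22 of the 56 genes have a gene on the opposite strand that starts within 1000 bases of their own start, and 16 of the 23 such neighbours were tested. With the replicate block 0 of these 16 were called, where 3.89% of all genes were called higher and 1.23% lower, so a count of 0 is near the share over all genes. Of the 16 replication genes beside them 10 were called with the block. The log2 fold changes of the neighbours ran from -0.33 to 0.51 with a median of 0.07, and those of the replication genes from 0.24 to 2.36 with a median of 1.28. The replication gene was above its neighbour in 15 of 16 pairs. Brca1 stood at a log2 fold change of 2.36 ± 0.39 and Nbr1, which starts 194 bases away, at -0.19 ± 0.17. Pole stood at 2.31 ± 0.43 and Pxmp2, 120 bases away, at -0.33 ± 0.27. Orc1 was at 1.97 ± 0.46 and its neighbour Prpf38a at 0.06 ± 0.15. The log2 fold changes of the other neighbours were 0.30 for Afmid beside Tk1, -0.07 for Ufd1 beside Cdc45, -0.00047 for Abhd12 beside Gins1, 0.38 for Slc25a40 beside Dbf4 and 0.20 for Tmem258 beside Fen1. They were 0.17 for Trmt6 beside Mcm8, 0.11 for Ap4m1 beside Mcm7, 0.01 for 1700001G17Rik beside Prim2, -0.26 for Prkdc beside Mcm4 and 0.13 for Vps35 beside Orc6. Beside the RPA genes they were -0.11 for Umad1 (Rpa3) and 0.09 for Smyd4 (Rpa1). The exception was Rnaseh2a at 0.24 ± 0.16, whose neighbour Prdx2, a peroxiredoxin, was at 0.51 ± 0.13 and passed the adjusted p with the block (edgeR, 0.0050) at a fold change under 2. Exons of 17 replication genes, among them Orc1, Orc2, Pole, Rfc4, Lig1 and Brca2, overlap an exon of a gene on the opposite strand. For Rnaseh2a (Prdx2), Tk1 (Afmid), Cdc45 (Ufd1), Fen1 (Tmem258), Mcm7 (Ap4m1) and Orc6 (Vps35) such a gene is the neighbour compared above. No source states whether reads were assigned by strand, so reads of such overlaps cannot be told apart.

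**Figure D5:**
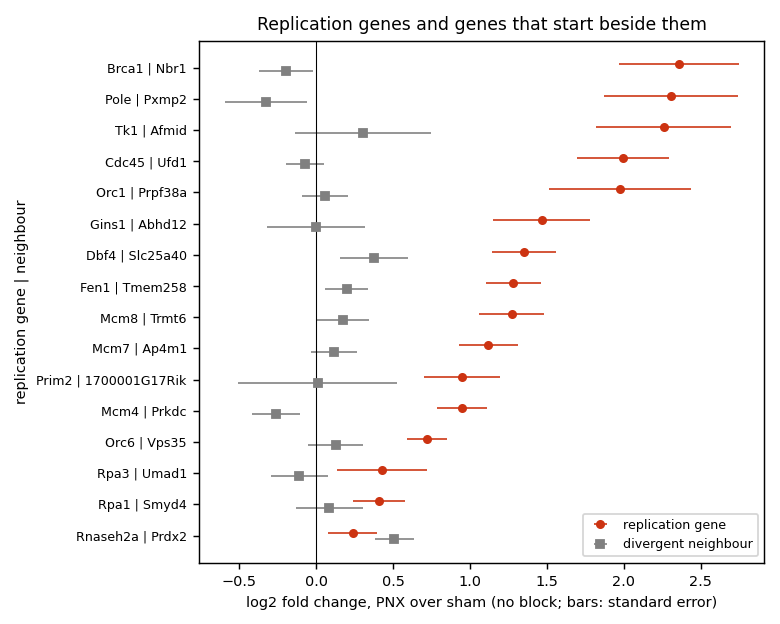
Log2 fold change of PNX over sham without a block, with standard errors as bars, for 16 replication genes (red circles) and the gene that starts within 1000 bases on the opposite strand (grey squares). The neighbours lie between -0.33 and 0.51, and Rnaseh2a is the only replication gene to the left of its neighbour.

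Promoter windows of 250 bases before to 50 bases after the start were read from RefSeq (GRCm38.p6) for 46 of the 56 genes. The E2F words TTTCCCGC, TTTCGCGC, TTTGCCGC and TTTGGCGC, searched on both strands, were present in 18 of the 46 genes (39.1%). The share was 4.22% of the 12064 tested genes with a window and 2.6% of all 27025 genes with a window. Counted by single windows instead of genes, it was 2.27% of all 32851. A gene was counted when any of its windows held a word, and words can share bases, as those of Mcm5 at -153 and -149 do. The E2F words were found in 12 of 52 other pathway genes (23.1%). Besides Cdc6 and Uhrf1 above, the 18 include Mcm3, Mcm5, Mcm6, Mcm7, Orc1, Cdt1, Lig1 and Dnmt1. The CCAAT box, the word bound by the factor NF-Y, was present in 28 of the 46 (60.9%), against 42.0% of the tested genes with a window. It was present in 41.1% of all genes with a window and in 37.4% of single windows. Within the 46, the 18 genes with an E2F word had a median log2 fold change of 1.16 and the 28 without 1.23, a difference that was not tested. Rrm2, with no such word in its windows, stood at 2.37 ± 0.38, and Dnmt1, with them, at 0.78 ± 0.20. These matches describe the letters of the windows and say nothing of what binds there.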

How the data were processed

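The authors sequenced RNA of CD31-selected lung ECs from stranded mRNA libraries, mapped them to the mm10 genome and deposited whole-number counts, FPKM and TPM of 33068 RefSeq transcripts for every library. The submitters' processing notes name STAR. The methods name the Basepair platform for counting. The STAR version, the counting rule and the annotation release were not found in the sources used here. The TPM values that the authors deposited were used only to set genes side by side, and the deposited FPKM values were not used.

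Counts were summed per symbol and scaled by TMM. Of 12313 transcripts that share a symbol and have over 50 counts, 2577 had the same count as another of their gene, so shared reads appear to be counted on each transcript. CPM values are therefore those of the most counted transcript, while fold changes come from the sums. Of the 56 genes, 37 have 1 transcript. Total counts were 29526989 to 81282871 per library.

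Replicates 1 and 2 had a chi-square per degree of freedom of 1.75 in sham and 1.57 in PNX, against 67.9 to 86.4 for pairs with replicate 3, and were summed to 1 sample. Without a block the p-values rest on the spread between the resulting 4 samples within their groups. With the block they rest on how far the difference between PNX and sham varied between the deposits. Fits of the 6 libraries count replicates 1 and 2 of a group as separate samples. Groups were taken from the labels and compared with edgeR 4.0.16 in R 4.3.3 (filterByExpr, quasi-likelihood test, Benjamini-Hochberg over 16598 genes), with calls at an adjusted p below 0.01 and more than a 2-fold difference. Each standard error is the log2 fold change over the square root of F. The labels mark the deposit, and what differed between the deposits in sham correlated with what differed in PNX over 14118 genes with a mean of at least 1 CPM (Pearson's r = 0.745, Spearman's rho = 0.748), so the deposit served as the replicate block. DESeq2 1.42.0, limma 3.58.1, other scalings, filters and left-out libraries were alternatives. The fits were tested on simulated data. An exact permutation test of 2 samples against 2 cannot go below p = 0.333, so none was run.

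All 56 genes may be named. Full values were given for the highest and lowest fold change of each role, the 5 most abundant genes in sham and those differing in direction between deposits, and for the other pathway genes the 5 highest and lowest fold changes were named. The members, lists and tests were chosen with earlier results of these data known. Positions and overlaps are from GENCODE vM21.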

Additional observations from a re-analysis of the deposited data

How the results depend on the processing

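The number of replication genes called, 0 without a block, was also 0 with limma-voom, other scalings or filters, the most counted transcript, an adjusted p under 0.05 and each library left out. It was 36 with the replicate block (849 of all genes and 21 of the other pathway genes), 25 with the 6 libraries separate (409 and 11), 36 with the 6 libraries and a replicate block (920 and 21) and 36 with the deposit as a covariate of the 6 libraries (1104 and 21). DESeq2 called 34 with 4 samples (587 and 18), 36 with the replicate block (813 and 21) and 36 with 6 libraries (927 and 21). With the replicate block it was 36 with DESeq2's size factors (624 and 20), with upper-quartile scaling (646 and 20), with library size alone (629 and 20), with the most counted transcript (727 and 20) and at an adjusted p under 0.05 (1186 and 21). With the block and 1 library of the earlier deposit left out, an alternative chosen after seeing the data, it was 36 without sham replicate 1 (671 and 21), 36 without sham replicate 2 (668 and 20), 31 without PNX replicate 1 (485 and 19) and 36 without PNX replicate 2 (863 and 21). Leaving out 1 library without the block gave 0 to 2 of all genes, and moved the median log2 fold change of the 56 genes to between 1.08 and 1.24, lowest without PNX replicate 3. The number of genes with all PNX libraries above all sham libraries was 53 under each scaling tried.

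The sign of 2 genes near 0 turned. With 1 library left out, the log2 fold change of Orc2 ran from -0.0193 (without sham replicate 3) to 0.0572 (without PNX replicate 2). The log2 fold change of Gins4 was 0.0032 with the 6 libraries separate, 0.0051 with their replicate block, 0.0080 with the deposit as a covariate, 0.0028 with DESeq2 on 6 libraries and with 1 library left out it ran from -0.0575 (without sham replicate 3) to 0.0763 (without PNX replicate 3). The cause was not tested. With 2 samples per group the test has 2 residual degrees of freedom, and 1 with the block, and genes such as Orc1 rest on few counts in sham.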
